A study of Mus musculus with 14 samples.

Results

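The 44 genes described here drive the mammalian cell cycle and copy the genome, and the measurements are the accessibility of the chromatin at and around their starts in regulatory T cells (Tregs). Regions were taken from the deposited table by position alone, in a pair of sets. The first holds the 62 regions, of 67254 in the table, whose midpoint lies within 1 kb of a transcription start of one of these genes, called promoter regions below. The second holds the 190 regions whose nearest protein-coding start belongs to one of them. Together the sets hold 197 regions, 55 of which are in both. Of the promoter regions, 12, at 8 genes (Cdk2, Aurka, Foxm1, Tk1, Cdc45, Mcm4, Mcm7 and Pcna), also have the start of a gene outside the list within 1 kb, and 7 of these lie nearest to that other gene, so that their levels cannot be told apart from those of the neighbour. A promoter region was found for 43 of the 44 genes, the exception being Rrm2, which encodes the regulated subunit of ribonucleotide reductase, and 41 genes were the nearest gene of at least 1 region, the exceptions being Mcm4, Aurka and Foxm1. The widest distance inside the promoter limit was 889 bp, at Ccna2 (a region of 128 CPM), and the first region outside it lay 1117 bp from the Bub1 start, at 4.56 CPM. CPM is the count of a region divided by the library's total over all regions, scaled to a common total.

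A cell enters the cycle when D cyclins with CDK4 or CDK6 phosphorylate the retinoblastoma protein Rb1, which releases E2F factors from repression. Inhibitors such as p27 (Cdkn1b), p21 (Cdkn1a) and p18 (Cdkn2c) hold cell cycle kinases back. E2F factors then switch on the genes for licensing origins, for the replication fork and for nucleotide supply, while a later wave of mitotic genes is controlled through CCAAT boxes bound by NF-Y and through CHR elements bound by the DREAM and MuvB complexes. Open promoters of these genes are common in resting cells as well as in cycling ones. In mice, effector Tregs hold more cycling cells than central Tregs, so that the promoters of this programme are a natural place to ask whether the chromatin itself differs between the states.

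The libraries were bulk ATAC-seq, in which a transposase inserts adapters into open DNA. Central Tregs (cTregs, CD44-CD62L+) and effector Tregs (eTregs, CD44+CD62L-) were sorted as CD4+Foxp3-YFP+ cells from the spleens of mixed bone marrow chimeras, giving 14 libraries in 4 groups. Each state had 3 libraries from control marrow and 4 from Atg14-deficient marrow. The control marrow was Foxp3CreAtg14+/fl, with 1 floxed allele of Atg14, and the deficient marrow was Foxp3CreAtg14fl/fl, so that cells of both carried the Cre and lost at least 1 allele after Foxp3 came on. Atg14 encodes a subunit of the Vps34 lipid kinase complex that starts autophagy. Each CD45.2+ marrow was mixed 1:1 with CD45.1+ wild-type marrow and given to sublethally irradiated Rag1-/- hosts, which make no B or T cells of their own, for 6 to 8 weeks. The Cre is driven from the Foxp3 locus, and it acts in both Treg states. The sources used here give as many chimeras of each genotype as there are libraries per state, with both states sorted from spleen, but do not say that a cTreg and an eTreg library with the same number came from 1 mouse. The p-values measure the spread between these libraries.

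Total counts were 2242983 to 5548189 per library, and 52.0% to 58.5% of them lay in promoter regions of protein-coding genes. No region within 1 kb of a Foxp3 start was in the table. Of 3 promoter regions of other Treg genes, those of Il2ra and Ikzf2 were not called between the states. That of Ctla4 was called lower in eTregs, at a log2 fold change of -0.56 in controls (adjusted p = 0.0497, edgeR). In Atg14-deficient cells the Ctla4 value was -0.66 (adjusted p = 0.00494, edgeR). The promoter of Atg14 (chr14:47567952-47568659) was accessible in all 14 libraries, at 16.8 to 35.2 CPM, but whether it overlaps the floxed part is not given in the sources used here, so that it checks no label. Of 8 promoter regions of Ccr7, Lef1, Tcf7 and Satb1, which mark central Tregs and naive T cells, 4 were called lower in control eTregs and 4 in Atg14-deficient eTregs than in the matching cTregs, and 0 were called higher. That of Ccr7, a homing receptor, had mean levels of 30.2 and 11.1 CPM in control cTregs and eTregs and of 37.3 and 19.5 CPM in the Atg14-deficient ones. Of 11 promoter regions of 6 eTreg genes (Icos, Klrg1, Prdm1, Tigit, Maf and Ccr8), 0 were called higher in either genotype and 1 was called lower, in the Atg14-deficient libraries. Of 11 genes that mark other cells of the spleen, 2 had a promoter region. That of Cd8b1, a subunit of the CD8 coreceptor, had 16.1 CPM in control cTregs and 4.35 CPM in control eTregs, and 16.3 and 4.94 CPM in the Atg14-deficient ones, and that of the globin gene Hbb-bt had 4.08 CPM at most as a group mean. The summed level of the 2 was 15.4 to 21.4 CPM in cTregs and 4.87 to 11.6 CPM in eTregs, so that it moved with the state, and its part in the differences between states below was not tested. In bulk libraries, fewer cells with an open region and less opening per cell cannot be told apart.

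RefSeq promoter sequences, from 250 bases before to 50 bases after the start in GRCm38.p6, were on hand for 36 of the 44 genes (not for Aurkb, Ccna2, Ccnd2, Ccne2, Foxm1, Gins1, Mcm4 and Rb1). An E2F motif was searched in 4 forms, spelled TTCCCGC for the first, TTCGCGC for the second, TTGCCGC for the third and TTGGCGC for the last, on either strand and with overlapping matches counted. It was present in 16 of them, or 44.4%, against 12.2% of the promoters of 17492 protein-coding genes. A CCAAT box (CCAAT, either strand) was present in 25, or 69.4%, against 39.0%, and a CHR element (TTTGAA, either strand) in 11, or 30.6%, against 16.5%. Among 11 mitotic promoters, CHR elements were in 8, CCAAT boxes in 10 and E2F motifs in 3, and among 8 promoters of licensing and fork genes, CCAAT boxes were in 7 and E2F motifs in 5. None of the 3 motifs was in the promoters of Ccnd3, Cdk4 or Cdk6. The promoters of 5 genes that the results below turn on are shown, as the 250 bases before the start, 5′ to 3′ on the strand of the gene, with the motifs in capitals. The first is Top2a (chr11:99024190-99024439, minus strand), a mitotic promoter with 6 CCAAT boxes and 2 CHR elements. The second is Cdk4 (chr10:127063285-127063534, plus strand), with none of the 3 motifs, in which the capitals mark 4 E-boxes (CACGTG, a motif looked for after the sequence was seen). Of all 17492 promoters, 1382, or 7.90%, held an E-box, 5 held 4 or more, and among the members the others with an E-box were Cdk6 and Tyms with 1 each. The third is Cdkn2c (chr4:109666757-109667006, minus strand), with 1 E2F motif close to the start. The fourth and the fifth are Mki67 (chr7:135716380-135716629, minus strand), with 1 E2F motif, 2 CHR elements and 3 CCAAT boxes, and Mcm5 (chr8:75109259-75109508, plus strand), with 3 E2F motifs, a pair of which overlap, and 2 CCAAT boxes.
Top2a: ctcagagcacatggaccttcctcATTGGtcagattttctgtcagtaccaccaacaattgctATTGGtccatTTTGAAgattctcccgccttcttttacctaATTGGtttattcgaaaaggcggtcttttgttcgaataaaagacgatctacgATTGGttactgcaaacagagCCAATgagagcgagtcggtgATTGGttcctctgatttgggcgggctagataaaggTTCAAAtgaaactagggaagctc
Cdk4: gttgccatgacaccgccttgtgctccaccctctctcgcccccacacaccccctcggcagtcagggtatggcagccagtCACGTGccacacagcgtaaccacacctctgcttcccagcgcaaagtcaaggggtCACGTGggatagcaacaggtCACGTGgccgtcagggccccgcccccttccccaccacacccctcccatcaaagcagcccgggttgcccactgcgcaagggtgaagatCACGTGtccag
Cdkn2c: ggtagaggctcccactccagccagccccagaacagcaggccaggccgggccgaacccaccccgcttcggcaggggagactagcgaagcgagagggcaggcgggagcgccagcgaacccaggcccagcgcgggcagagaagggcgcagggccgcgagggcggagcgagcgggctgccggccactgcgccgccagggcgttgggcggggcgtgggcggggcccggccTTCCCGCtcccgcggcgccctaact
Mki67: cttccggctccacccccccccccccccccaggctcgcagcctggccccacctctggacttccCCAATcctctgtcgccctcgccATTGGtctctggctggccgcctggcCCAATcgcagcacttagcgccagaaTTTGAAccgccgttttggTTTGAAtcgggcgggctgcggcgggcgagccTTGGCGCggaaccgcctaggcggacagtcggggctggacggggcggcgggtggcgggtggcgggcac
Mcm5: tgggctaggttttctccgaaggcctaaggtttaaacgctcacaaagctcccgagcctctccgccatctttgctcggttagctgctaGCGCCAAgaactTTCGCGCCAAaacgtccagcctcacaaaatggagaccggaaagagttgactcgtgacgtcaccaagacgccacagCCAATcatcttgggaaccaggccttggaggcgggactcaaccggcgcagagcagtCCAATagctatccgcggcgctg

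Member promoters were open in every group. Their median level over the 14 libraries was 33.0 CPM, with a range of 3.53 to 170 CPM, against 22.7 CPM for the 14308 tested promoter regions of protein-coding genes. Per length the medians were 70.1 and 40.2 CPM per kb. The summed level of the 62 regions was 2604 to 3041 CPM in all 14 libraries, and it took 0.494% to 0.525% of the counts in promoter regions. The mean share was 0.502% in control cTregs and 0.513% in control eTregs, and 0.503% and 0.514% in the Atg14-deficient ones. Between same-numbered libraries of a genotype, the share was always higher in the eTreg library, a difference that was not tested. Taking the region of the highest mean CPM for each gene, the highest levels per length were at E2f3 (229 CPM per kb), which encodes an activating E2F factor, Ccna2 (218 CPM per kb), the S-phase cyclin A2, and Mcm5, Mcm3 and Pcna (201, 180 and 179 CPM per kb), which encode subunits of the replicative helicase and the sliding clamp. The proliferation marker Mki67 stood at 126 CPM per kb, in the 88.9th percentile of all promoter regions. The lowest were Tyms and Tk1 (14.96 and 19.0 CPM per kb), which supply thymidylate, Cdkn1a (25.4) and Birc5 (26.8), the latter encoding the mitotic protein survivin. Top2a (39.8) was close to the middle of all promoters, at the 49.5th percentile. High levels were thus found at genes of every stage from G1 to mitosis, and the plot of levels by role shows the 14 libraries of most genes lying close together relative to the spread between genes.

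**Figure D1:**
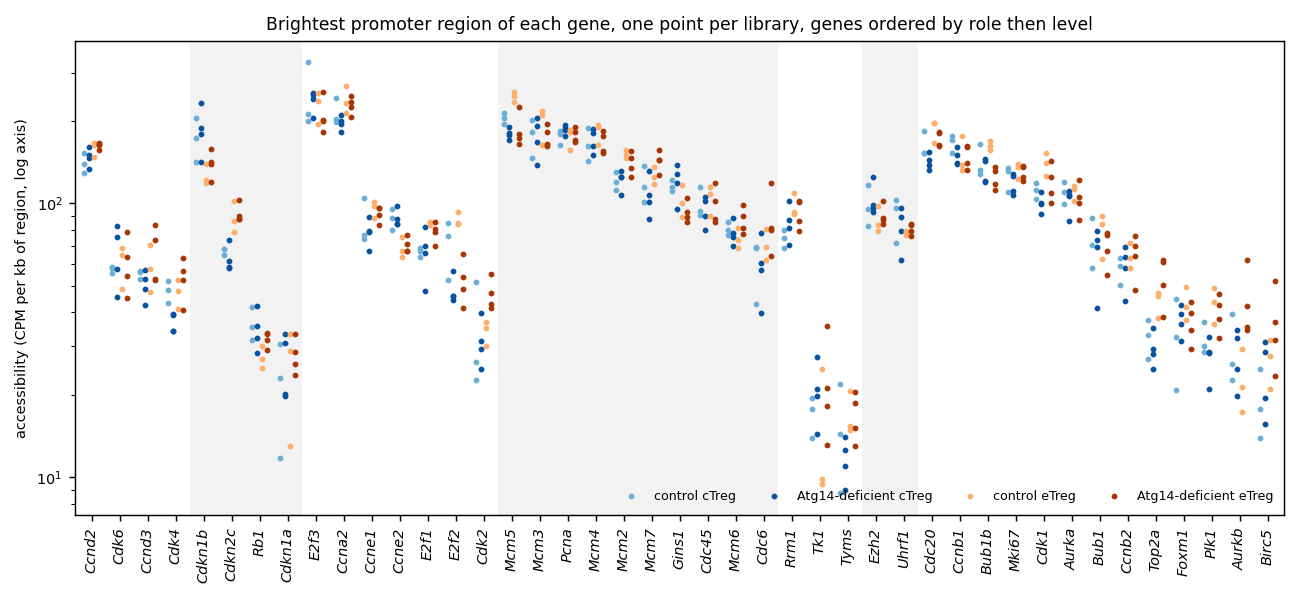
Accessibility of the brightest promoter region of each of 43 genes in CPM per kb of region (log axis), with 1 point per library in 4 colours for the 4 groups, and genes ordered by role (shaded blocks) and then by level. E2f3 and Ccna2 are highest at 229 and 218 CPM per kb, Tyms is lowest at 14.96 CPM per kb, and the 4 groups of a gene mostly overlap.

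The first comparison asked whether these promoters differ between the states in control cells. All 62 promoter regions passed the filter on low counts, and 0 were called between control eTregs and control cTregs (edgeR's quasi-likelihood test, adjusted p below 0.05 over all 61366 tested regions and a log2 fold change beyond 0.5), where 2.73% of all promoter regions and 5.30% of all tested regions were called. At an unadjusted p below 0.05, whatever the fold change, 10 regions passed (16.1%, against 15.6% of all promoter regions), and DESeq2's Wald test called 0 as well, where it called 3.75% of all promoter regions. With the replicate number as a block, edgeR called 0 of 62 too, against 5.86% of all promoter regions. The median log2 fold change was 0.15 (eTreg over cTreg), against 0.06 over all promoter regions, and 41 of 62 values (66.1%) were above 0, against 57.5% of all promoter regions. The range was -0.57 to 0.53. The 95% interval lay within a 2-fold change in either direction for 49 of the 62. The smallest adjusted p was that of Cdkn1b, at 0.0816 (edgeR), with a log2 fold change of -0.45 ± 0.15 (SE).

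In Atg14-deficient cells the same comparison called 3 of 62 promoter regions, all higher in eTregs. That is 4.84% of the set, against 7.68% of all promoter regions and 9.81% of all tested regions. Counting only those higher in eTregs, 5.48% of all promoter regions were called, so that the share of members was near that background. The median log2 fold change was 0.15, against 0.12 over all promoter regions, with 44 of 62 (71.0%) above 0, against 62.3% of all promoter regions, and a range of -0.58 to 0.85, and 50 of the 62 intervals lay within a 2-fold change. The cTreg and eTreg libraries of the Atg14-deficient group that share a number also deviated together (correlations of 0.12 to 0.24 for all 4 pairs). With the replicate block, the same test called 9 promoter regions, all higher in eTregs, which is 14.5% of the set against 12.1% of all promoter regions and 15.5% of all tested regions. The other 6 were Cdc6 (log2 fold change of 0.56), E2f2 (0.85), Ccnd3 (0.73), Mcm7 (0.55), Birc5 (0.59) and Plk1 (0.53). The share of counts in promoters differed between libraries, and with it as a covariate 6 promoter regions were called in Atg14-deficient cells, 9.68% against 13.7% of all promoter regions and 17.7% of all tested regions, of which 5 were higher in eTregs and 1, Cdkn1b at -0.57, was lower. In controls the covariate gave 1 call, again Cdkn1b, at -0.55, or 1.61% against 6.21% and 11.1%. Of the 3 regions called in Atg14-deficient cells without the covariate, only Top2a was called in those cells with it. That 3 regions were called here and 0 in controls does not show a difference between genotypes, and the interaction called 0.

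Top2a, topoisomerase IIα, which untangles sister DNA before mitosis, had the largest change. Its promoter region (chr11:99023942-99024566, around the sequence above) had 17.6, 15.6, 18.4 and 21.8 CPM in Atg14-deficient cTregs and 24.0, 31.4, 38.6 and 38.3 CPM in the eTregs. The log2 fold change was 0.85 ± 0.20 (SE, adjusted p = 0.00728, edgeR's quasi-likelihood test). The control libraries were 23.5, 20.6 and 16.9 CPM in cTregs and 28.6, 29.4 and 23.8 CPM in eTregs, for 0.40 ± 0.23 (adjusted p = 0.326, edgeR). In both genotypes every eTreg library was above every cTreg library and the interaction was 0.44 ± 0.30.

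Cdk4, the kinase partner of the D cyclins, was the one of the 3 whose control values overlapped. Its promoter region (chr10:127063085-127063978) had 35.3, 35.0, 30.5 and 30.5 CPM in Atg14-deficient cTregs and 36.6, 56.5, 50.6 and 47.0 CPM in the eTregs, with no overlap and a log2 fold change of 0.54 ± 0.15 (SE, adjusted p = 0.0254, edgeR). Control cTregs had 38.6, 46.7 and 43.2 CPM and control eTregs 36.8, 47.0 and 42.9 CPM, for -0.02 ± 0.17. All 4 Atg14-deficient cTreg libraries lay below all 3 control cTreg libraries (log2 fold change of -0.39 ± 0.17), and the interaction was 0.56 ± 0.23, both with an adjusted p of 1.00 in edgeR. The call at Cdk4 did not hold without Atg14-deficient cTreg replicate 3 or without any one of eTreg replicates 2, 3 and 4, with log2 fold changes of 0.45 to 0.54 there.

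Cdkn2c encodes p18, an inhibitor of CDK4 and CDK6. The region over its upstream start (chr4:109666634-109667261) had 38.6, 45.9, 36.8 and 36.3 CPM in Atg14-deficient cTregs and 55.1, 64.4, 55.1 and 56.2 CPM in the eTregs. The log2 fold change was 0.55 ± 0.14 (SE, adjusted p = 0.0104, edgeR). Control cTregs had 40.8, 42.6 and 42.8 CPM and control eTregs 54.0, 49.3 and 64.2 CPM, with no overlap either and 0.41 ± 0.15 (adjusted p = 0.115, edgeR). The other promoter regions of Cdkn2c, near its downstream start, were -0.19 and -0.11 in controls and -0.14 and -0.21 in Atg14-deficient cells, so that only the upstream start was called. Without Atg14-deficient eTreg replicate 2 the log2 fold change was 0.50, below the fold limit.

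**Figure D2:**
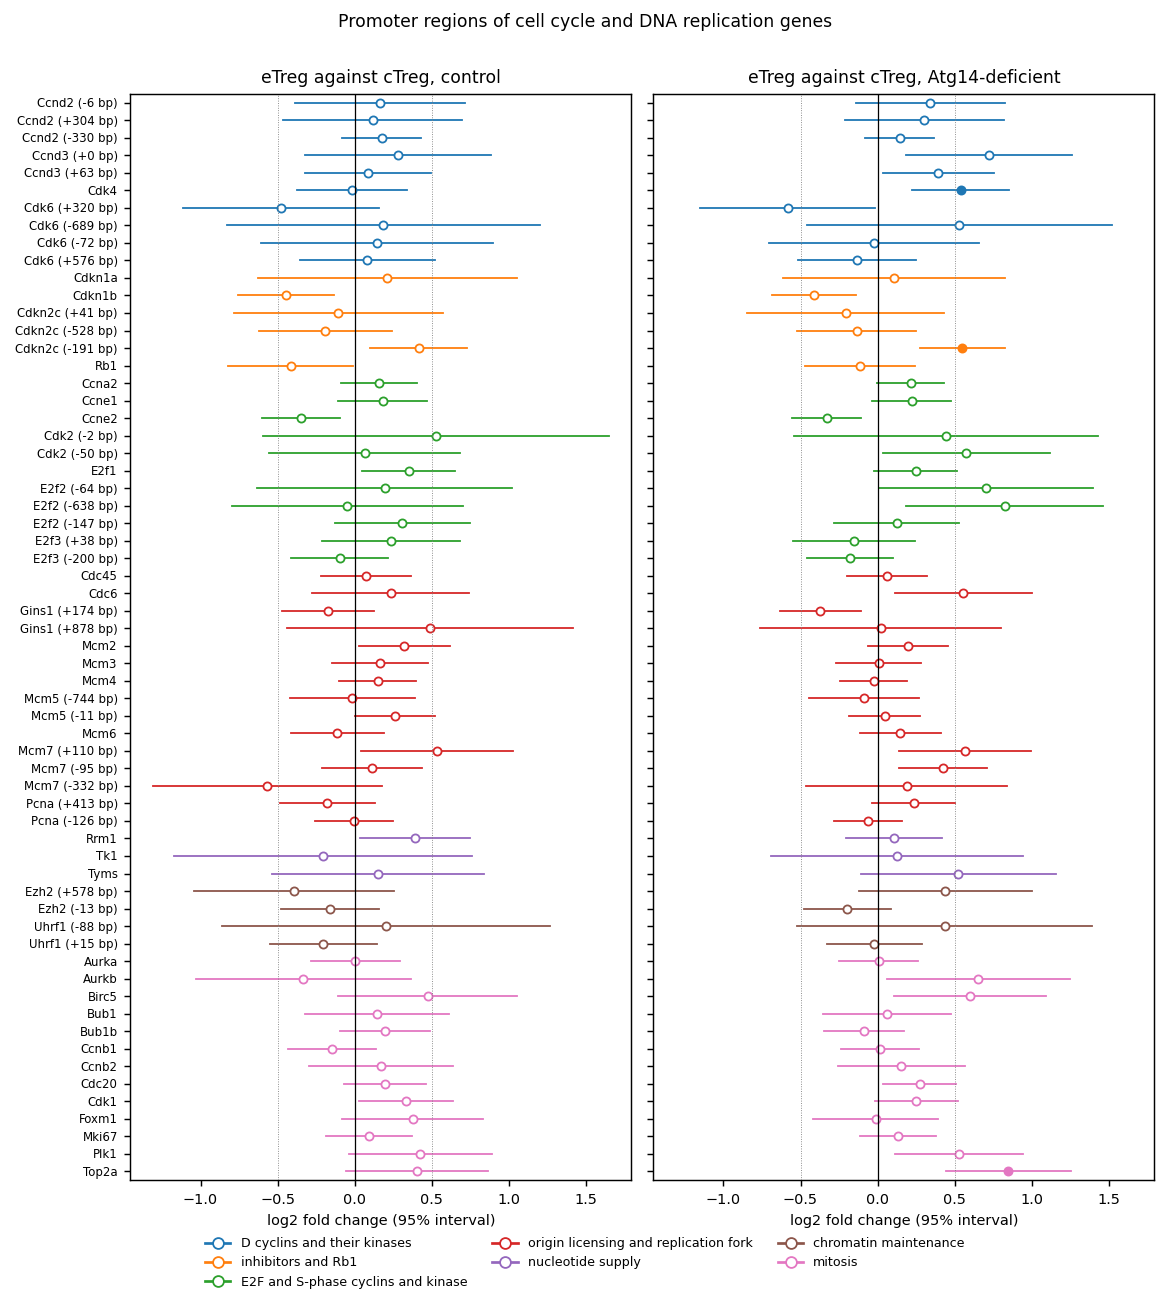
Log2 fold change of eTregs over cTregs with its 95% interval for the 62 promoter regions, in control (left) and Atg14-deficient (right) cells, coloured by role, with filled points for called regions and dotted lines at a log2 fold change of 0.5 either way. No control point is filled, and the 3 filled points on the right are Cdk4, Cdkn2c and Top2a.

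By role, the G1 machinery came first. The 10 promoter regions of the D cyclins and their kinases (Ccnd2, Ccnd3, Cdk4 and Cdk6) had a median log2 fold change of 0.13 in controls and 0.32 in Atg14-deficient cells, with 1 call. The main Ccnd2 promoter region (chr6:127152252-127152784), of the cyclin D2 gene that mitogens induce, had 68.9, 81.6 and 74.0 CPM in control cTregs and 88.2, 78.7 and 86.7 CPM in control eTregs. In Atg14-deficient cells it had 85.7, 71.2, 79.7 and 77.7 CPM in cTregs and 83.6, 87.9, 87.4 and 88.4 CPM in eTregs. The groups overlapped in both genotypes, at 0.17 ± 0.12 and 0.14 ± 0.11. The brightest Cdk6 region (chr5:3344173-3344765) had 33.0 to 34.8 CPM in control cTregs, 28.9 to 40.6 CPM in control eTregs, and 26.7 to 49.1 CPM over the Atg14-deficient libraries.

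The 6 promoter regions of the inhibitors and Rb1 were the one group besides chromatin maintenance whose control median was below 0, at -0.15, and it was -0.13 in Atg14-deficient cells. The promoter of Cdkn1b (chr6:134920121-134920863), which encodes the quiescence inhibitor p27, had 129, 106 and 152 CPM in control cTregs and 87.8, 90.01 and 103 CPM in control eTregs. In Atg14-deficient libraries it had 133, 173, 140 and 105 CPM in cTregs and 105, 118, 103 and 89.1 CPM in eTregs. The log2 fold changes were -0.45 ± 0.15 (adjusted p = 0.0816, edgeR) and -0.41 ± 0.13 (adjusted p = 0.0437, edgeR), the second past the p limit but not the fold limit, and both were called with the promoter share as a covariate, as given above. Rb1 had 36.7, 30.9 and 27.6 CPM in control cTregs and 21.8, 26.2 and 23.6 CPM in control eTregs, at -0.42 ± 0.20 (adjusted p = 0.241, edgeR), and -0.12 ± 0.18 in Atg14-deficient cells, where 28.1, 37.0, 31.0 and 24.7 CPM overlapped with 29.4, 27.6, 25.4 and 29.0 CPM. The Cdkn1a promoter was thin, and its values of 0.21 and 0.11 had 95% intervals from -0.63 to 1.05 and from -0.61 to 0.83.

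The 11 promoter regions of E2F factors, cyclins A2, E1 and E2 and Cdk2 had medians of 0.18 and 0.22 with no call. Ccne2, cyclin E2, was lower in eTregs by a similar amount in both genotypes, at -0.35 ± 0.12 (adjusted p = 0.0985, edgeR) and -0.33 ± 0.11 (adjusted p = 0.0478, edgeR), inside the fold limit. The 15 regions of licensing and fork genes had medians of 0.11 and 0.06 with no call. Mcm5 (chr8:75109229-75109686) had 97.8, 94.1 and 89.2 CPM in control cTregs and 113, 107 and 117 CPM in control eTregs, for 0.26 ± 0.13, and 81.5, 82.5, 86.8 and 77.7 against 75.5, 103, 79.4 and 82.2 CPM in Atg14-deficient cells, for 0.05 ± 0.11. Cdc6, the loader of the helicase, had 17.6, 28.2 and 28.5 against 33.2, 28.3 and 25.6 CPM in controls, which overlapped, and 23.5, 24.9, 16.3 and 32.1 against 26.4, 33.5, 32.8 and 48.5 CPM in Atg14-deficient cells, for 0.55 ± 0.22 (adjusted p = 0.0962, edgeR). The 3 nucleotide supply regions had medians of 0.15 and 0.12 and the 4 chromatin maintenance regions -0.18 and 0.21, with no call. Ezh2, the methyltransferase of Polycomb, had 51.7 to 73.1 CPM in control cTregs and 49.4 to 61.3 CPM in control eTregs, and 57.9 to 78.3 CPM in Atg14-deficient cTregs and 52.4 to 63.6 CPM in Atg14-deficient eTregs.

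The 13 mitotic promoter regions had medians of 0.19 in controls and 0.15 in Atg14-deficient cells, with 11 of 13 (84.6%) above 0 in each, against 57.5% and 62.3% of all promoter regions, and 1 call, Top2a. Other scalings left 9 of 13 (TMM) to 11 of 13 (DESeq2) above 0 in Atg14-deficient cells and 10 of 13 (loess) to 11 of 13 in controls. For D cyclins and their kinases, 8 of 10 were above 0 in controls and 7 of 10 in Atg14-deficient cells. In the same order, E2F and S-phase genes had 8 and 8 of 11, and licensing and fork genes 9 and 11 of 15. Nucleotide supply had 2 and 3 of 3, inhibitors and Rb1 2 and 2 of 6, and chromatin maintenance 1 and 2 of 4. The summed level of the 13 mitotic regions was 548 to 584 CPM in control cTregs and 593 to 655 CPM in control eTregs. In Atg14-deficient cells it was 517 to 548 CPM in cTregs and 570 to 614 CPM in eTregs. The sum of every other role overlapped between the states in 1 or both genotypes, and these sums were not tested. Mki67 (chr7:135716334-135716864) hardly moved, with 58.4, 69.4 and 71.3 CPM in control cTregs, 74.2, 65.1 and 72.3 CPM in control eTregs, 68.0, 67.0, 57.1 and 59.1 CPM in Atg14-deficient cTregs and 71.9, 72.8, 64.1 and 66.0 CPM in Atg14-deficient eTregs. Its log2 fold changes were 0.09 (95% interval -0.19 to 0.37) and 0.13 (-0.11 to 0.38). Ccnb1, cyclin B1, had 80.4, 71.8 and 82.9 CPM in control cTregs and 65.4, 62.5 and 83.5 CPM in control eTregs, at -0.15 ± 0.14, and 0.01 ± 0.12 in Atg14-deficient cells, where 65.5 to 75.5 CPM stood beside 62.3 to 76.1 CPM. Plk1, a kinase of mitotic entry, had 24.0, 18.7 and 19.6 against 31.9, 23.6 and 28.5 CPM in controls and 18.5, 18.7, 13.7 and 21.2 against 21.0, 27.6, 24.6 and 30.3 CPM in Atg14-deficient cells. Its log2 fold changes were 0.43 ± 0.23 (adjusted p = 0.301, edgeR) and 0.53 ± 0.20 (adjusted p = 0.0913, edgeR), with 1 library overlapping in each genotype.

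**Figure D3:**
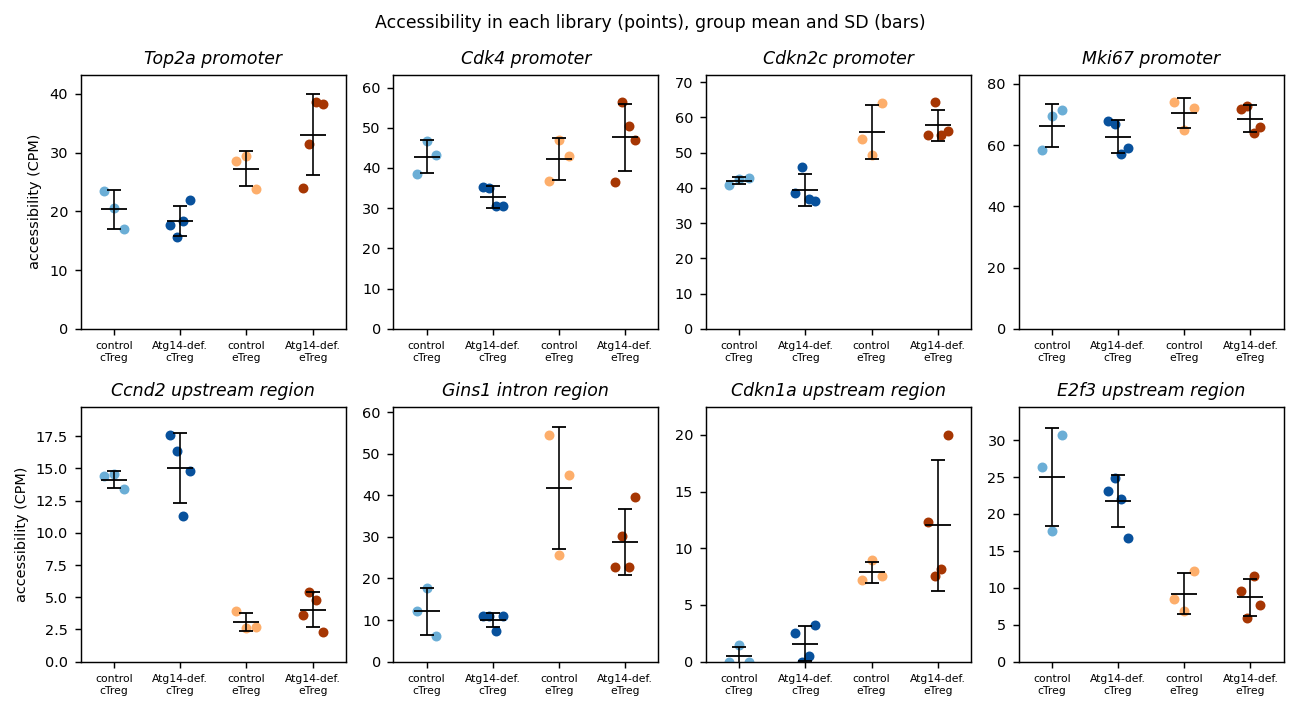
Accessibility in CPM of 8 regions in every library (points, 4 groups), with the group mean and SD as bars; the upper row holds promoters, the lower row regions away from starts, and each axis starts at 0. The Top2a and Cdkn2c promoters are higher in eTregs, Cdk4 in the Atg14-deficient pair alone and Mki67 in neither, while the Ccnd2 and E2f3 upstream regions are lower and the Gins1 and Cdkn1a regions higher in eTregs of both genotypes.

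The regions nearest a member's start, promoters among them, were read next. Of the 181 tested regions nearest a member's start, 7 were called in controls (3.87%, against 5.30% of all tested regions), 2 higher in eTregs (1.10%, against 2.01%) and 5 lower (2.76%, against 3.29%). In Atg14-deficient cells 16 were called (8.84%, against 9.81%), 8 higher (4.42%, against 4.41%) and 8 lower (4.42%, against 5.40%), so that the shares were near or under the background in each direction. Of the 126 that lay outside promoters, 7 were called in controls (5.56%, against 6.08% of all regions outside promoters) and 13 in Atg14-deficient cells (10.3%, against 10.5%), again near the background. With the replicate block, 31 were called in Atg14-deficient cells, all 16 among them, which is 17.1% against 15.5% of all tested regions, and 15 in controls, which is 8.29% against 10.4%. DESeq2 called 12 in controls, or 6.63% against 6.82%, and the promoter share as a covariate gave 19, or 10.5% against 11.1%. In Atg14-deficient cells the covariate gave 31, or 17.1% against 17.7% of all tested regions, with 11 of the 16 among them. Across both comparisons 17 regions of 13 genes were called, 6 in both. All of those 6 lay outside promoters, since no promoter region was called in controls. The matching shares over all tested regions are not given here, so that these counts have no background beside them. Over the 126 tested regions outside promoters, the log2 fold changes in control and Atg14-deficient cells, which come from separate libraries, correlated at r = 0.82, against 0.69 over all regions outside promoters, and over the 62 promoter regions at r = 0.44, against 0.61 over all promoters. By rank the correlations were 0.71 against 0.66 outside promoters and 0.43 against 0.58 at promoters. The sign was the same for 71.4% of member regions outside promoters, against 73.6%. At promoters it was the same for 75.8% of member regions, against 72.5%. These measures are taken across regions, which are not replicates.

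**Figure D4:**
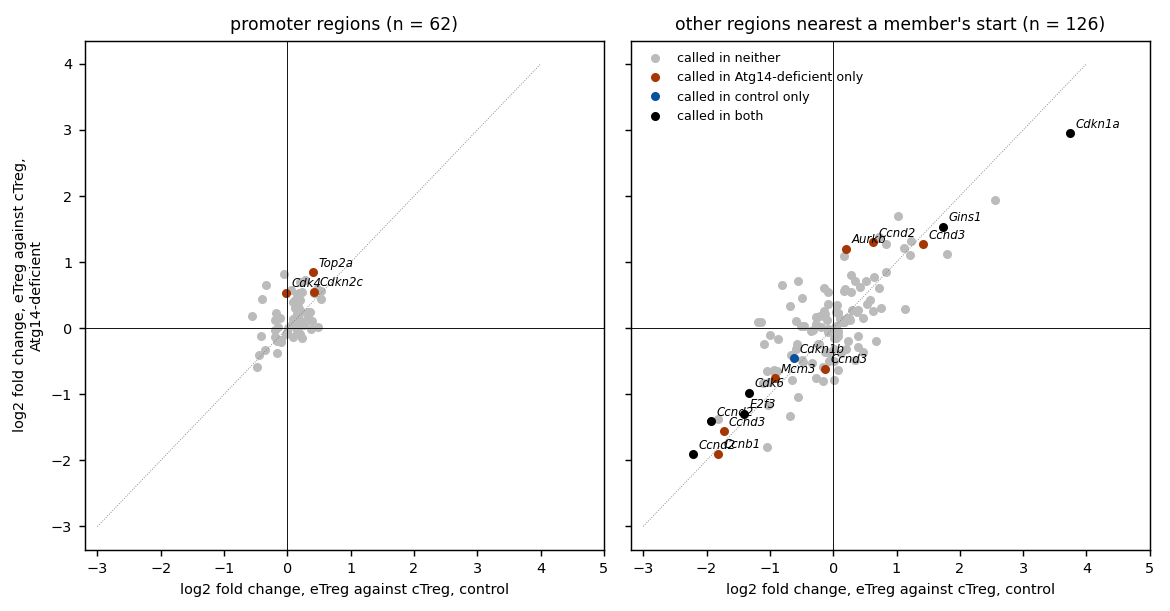
Log2 fold change of eTregs over cTregs in Atg14-deficient cells (vertical) against controls (horizontal), for 62 promoter regions (left) and 126 other regions nearest a member's start (right), coloured by the comparisons that called them; the dotted line marks equal values. Promoters lie within -0.58 and 0.85, whereas other regions reach -2.21 and 3.74, and the 6 black points called in both lie near the line.

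A region 118.6 kb upstream of Ccnd2 (chr6:127270615-127271053) had the smallest p of all members. Control cTregs had 14.4, 14.6 and 13.4 CPM and control eTregs 3.90, 2.62 and 2.70 CPM. Atg14-deficient cTregs had 17.6, 16.4, 11.3 and 14.8 CPM and eTregs 3.60, 5.44, 4.76 and 2.31 CPM. The log2 fold changes were -2.21 ± 0.36 (adjusted p = 0.000571, edgeR's quasi-likelihood test) and -1.91 ± 0.31 (adjusted p = 0.000341, edgeR), with no overlap, while the Ccnd2 promoter above was not called. A second region 26.0 kb upstream (chr6:127178013-127178347) was also lower in eTregs, with 4.40, 4.31 and 10.7 against 0.651, 2.62 and 1.44 CPM in controls and 5.88, 10.9, 9.99 and 5.14 against 4.19, 2.51, 2.65 and 2.57 CPM in Atg14-deficient cells. Its log2 fold changes were -1.93 ± 0.54 (adjusted p = 0.0308, edgeR) and -1.41 ± 0.44 (adjusted p = 0.0361, edgeR). The control call was lost without cTreg replicate 1 or 3 or without eTreg replicate 1 or 3, at values as near 0 as -1.43 (adjusted p up to 0.192, edgeR). The Atg14-deficient call was lost without cTreg replicate 2 or 3 or without eTreg replicate 2, 3 or 4, at values as near 0 as -1.24 (adjusted p up to 0.123, edgeR). Another region, 64.1 kb upstream, moved the other way in Atg14-deficient cells, from 1.68, 2.34, 5.26 and 5.78 CPM to 8.09, 10.9, 7.41 and 12.3 CPM (1.30 ± 0.37, adjusted p = 0.0251, edgeR), and had 5.62, 11.0 and 5.80 against 12.4, 14.7 and 8.65 CPM in controls (0.64 ± 0.39), and its call was lost without cTreg replicate 1 or 2 or without eTreg replicate 4 (1.08 to 1.15). One gene thus had regions called in opposite directions.

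The 300 bases centred on the first Ccnd2 region and on the called regions of Gins1 and Cdkn1a, which moved the other way, are shown on the plus strand of GRCm38 (chr6:127270684-127270983, chr2:150918747-150919046 and chr17:29065407-29065706). Capitals mark TCF/LEF (ATCAAAG), AP-1 (TGANTCA), RUNX (TGTGGTT) and E-box (CACGTG) matches on either strand, 4 motifs chosen after the values were seen. The Ccnd2 window holds 2 TCF/LEF matches, which lie in 2 copies of 1 repeated stretch. The Gins1 window holds 1 AP-1 match, and the Cdkn1a window 1 AP-1 and 1 RUNX match. Of the 47014 tested regions outside promoters on chromosomes, 6.32% held TCF/LEF, 17.3% AP-1, 15.1% RUNX and 6.10% an E-box in the same window. AP-1 was in 3 of the 5 member regions outside promoters called higher in eTregs and in 2 of the 9 called lower, and TCF/LEF in 0 of 5 and 1 of 9. RUNX was in 1 of 5 and 0 of 9, and so was the E-box. Not shown are the windows of the second Ccnd2 region and of the Cdk6 and E2f3 regions below, which held none of the 4 motifs.
Ccnd2 upstream region: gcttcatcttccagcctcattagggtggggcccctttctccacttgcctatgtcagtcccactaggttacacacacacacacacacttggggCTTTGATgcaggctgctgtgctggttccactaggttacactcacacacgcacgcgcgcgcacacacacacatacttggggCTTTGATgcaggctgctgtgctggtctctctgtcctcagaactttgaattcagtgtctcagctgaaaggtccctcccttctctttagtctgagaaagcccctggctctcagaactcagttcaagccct
Gins1 intron region: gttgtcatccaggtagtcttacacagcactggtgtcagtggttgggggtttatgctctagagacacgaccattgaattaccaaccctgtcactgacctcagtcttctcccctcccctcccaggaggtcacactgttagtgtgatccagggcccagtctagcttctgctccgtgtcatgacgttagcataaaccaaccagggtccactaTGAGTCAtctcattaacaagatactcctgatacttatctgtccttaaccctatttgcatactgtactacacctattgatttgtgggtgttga
Cdkn1a upstream region: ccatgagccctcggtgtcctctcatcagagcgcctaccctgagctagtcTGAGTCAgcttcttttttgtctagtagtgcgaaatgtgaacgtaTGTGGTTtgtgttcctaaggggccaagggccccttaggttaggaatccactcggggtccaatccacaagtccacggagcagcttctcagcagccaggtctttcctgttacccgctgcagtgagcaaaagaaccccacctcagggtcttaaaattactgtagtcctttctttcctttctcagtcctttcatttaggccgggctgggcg

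The Gins1 region (chr2:150918666-150919128) lies in an intron 9.3 kb past the start of this gene, which encodes a subunit of the GINS complex of the replicative helicase. It had 12.2, 17.7 and 6.24 CPM in control cTregs and 54.6, 25.7 and 44.9 CPM in control eTregs, and 10.9, 10.9, 7.36 and 10.9 against 22.8, 30.1, 22.8 and 39.6 CPM in Atg14-deficient cells. The log2 fold changes were 1.73 ± 0.31 (adjusted p = 0.0013, edgeR) and 1.54 ± 0.28 (adjusted p = 0.0011, edgeR), with no overlap. The brightest promoter region of the same gene was not called, at -0.17 ± 0.15 in controls and -0.37 ± 0.13 in Atg14-deficient cells.

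Cdkn1a, which encodes p21, had the largest fold. A region 25.4 kb upstream (chr17:29065214-29065901) had 0, 1.44 and 0 CPM in control cTregs and 7.16, 8.92 and 7.57 CPM in control eTregs. In Atg14-deficient cells it had 2.52, 0, 0.526 and 3.21 CPM in cTregs and 12.3, 7.53, 8.21 and 20.03 CPM in eTregs. The log2 fold changes were 3.74 (95% interval 2.12 to 5.35, adjusted p = 0.00622, edgeR) and 2.95 (1.74 to 4.17, adjusted p = 0.00266, edgeR), and since several cTreg libraries had no count, the fold itself is poorly fixed. Without control cTreg replicate 2, the one control cTreg library with a count, the fitted control value was 7.75, and without any other control library it was 3.10 to 3.80. A neighbouring region 24.8 kb upstream was at 2.56 and 1.94 and not called, but with the replicate block it was called in both genotypes (2.90 and 2.12, adjusted p = 0.0116 and 0.0149, edgeR), as it was with the promoter share as a covariate. The Cdkn1a promoter did not follow, as given above.

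The other 2 regions called in both comparisons were lower in eTregs. One lay 194.3 kb upstream of Cdk6 (chr5:3146461-3146875), with 33.7, 43.1 and 32.1 against 9.76, 19.9 and 13.7 CPM in controls and 31.1, 17.1, 38.4 and 33.4 against 14.98, 12.6, 19.1 and 14.4 CPM in Atg14-deficient cells, where 1 cTreg library overlapped. Its Atg14-deficient call was lost without cTreg replicate 3 (-0.83). Its log2 fold changes were -1.32 ± 0.27 and -0.98 ± 0.24 (adjusted p = 0.00391 and 0.0096, edgeR). The other lay 57.0 kb upstream of E2f3 (chr13:30042736-30043343), with 26.4, 17.7 and 30.8 against 8.46, 6.82 and 12.3 CPM in controls and 23.1, 24.9, 22.1 and 16.7 against 9.59, 5.86, 11.6 and 7.71 CPM in Atg14-deficient cells. Its values were -1.40 ± 0.29 and -1.29 ± 0.26 (adjusted p = 0.0049 and 0.00244, edgeR), with no overlap. The E2f3 promoter, at -0.10 ± 0.15 and -0.18 ± 0.14, was not called.

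One region was called in controls and not in Atg14-deficient cells, in the Cdkn1b intron 1.2 kb past the start (chr6:134921447-134921839). It had 51.8, 44.3 and 67.8 CPM in control cTregs and 33.2, 31.8 and 40.6 CPM in control eTregs (-0.61 ± 0.17, adjusted p = 0.0289, edgeR), and 55.8, 52.9, 60.5 and 64.9 against 46.4, 44.3, 39.4 and 40.8 CPM in Atg14-deficient cells (-0.46 ± 0.15, adjusted p = 0.0413, edgeR, inside the fold limit). Neither genotype's states overlapped, and the neighbouring Cdkn1b promoter had the same sign. The control call was lost without cTreg replicate 1 or 3 or without eTreg replicate 1 or 2, at values as near 0 as -0.44 (adjusted p up to 0.182, edgeR), and with the promoter share as a covariate the region was called in Atg14-deficient cells too (-0.54, adjusted p = 0.00738, edgeR). At Ccnd3, cyclin D3, 3 regions were called in Atg14-deficient cells and not in controls. That at 28.7 kb upstream of the inner start (chr17:47564505-47565002) went from 9.24, 2.34, 2.63 and 3.85 CPM to 9.59, 11.3, 9.26 and 12.3 CPM (1.27 ± 0.39, adjusted p = 0.0333, edgeR), with 5.38, 4.79 and 1.78 against 11.1, 14.7 and 8.11 CPM in controls (1.42 ± 0.43, adjusted p = 0.0504, edgeR), where it was called with the replicate block (1.51, adjusted p = 0.00829, edgeR) and with the covariate. That at 31.1 kb past the outer start went from 6.30, 2.73, 10.8 and 8.67 CPM to 2.40, 1.67, 2.12 and 3.34 CPM (-1.56 ± 0.48, adjusted p = 0.0349, edgeR), with a control value of -1.73 ± 0.60 (adjusted p = 0.0865, edgeR). Both had like values in the 2 genotypes and fell on either side of the limit. The third, 16.7 kb past the outer start (chr17:47521526-47521909), went from 38.6, 23.4, 43.4 and 33.7 CPM to 24.3, 21.8, 23.8 and 21.3 CPM (-0.61 ± 0.20, adjusted p = 0.0474, edgeR), while controls had 24.2, 23.9 and 20.5 against 19.5, 27.3 and 16.6 CPM. Each of these 3 calls was lost without any one of several single libraries, among them cTreg replicates 3 and 4 and eTreg replicates 1, 2 and 4 for all 3, and the 2 lower ones were lost with the covariate as well (adjusted p = 0.0797 and 0.143, edgeR).

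Of the mitotic and replication genes, 3 had a called region outside their promoter in Atg14-deficient cells and not in controls. A region 5.3 kb upstream of Aurkb, the kinase of the chromosomal passenger complex, went from 5.88, 6.23, 4.73 and 3.21 CPM to 10.5, 8.37, 7.94 and 18.5 CPM (1.20 ± 0.35, adjusted p = 0.0278, edgeR), with 6.11, 6.22 and 11.6 against 9.76, 10.8 and 6.49 CPM in controls. A region 19.5 kb upstream of Ccnb1 went from 2.52, 16.4, 10.8 and 5.78 CPM to 0.599, 5.86, 1.06 and 2.57 CPM (-1.90 ± 0.59, adjusted p = 0.0415, edgeR), with 9.29, 2.15 and 3.57 against 1.95, 1.57 and 0.901 CPM in controls, and the cTreg libraries of either genotype differed widely among themselves. A region 4.9 kb upstream of Mcm3 was at -0.76 ± 0.25 (adjusted p = 0.0459, edgeR) and, in controls, at -0.92 ± 0.28 (adjusted p = 0.0511, edgeR). With the covariate the Mcm3 call in Atg14-deficient cells was lost (-0.70, adjusted p = 0.0514, edgeR). In controls the Mcm3 region was called with the replicate block (-0.92, adjusted p = 0.0180, edgeR) and with the covariate (-0.88), and the Ccnb1 region with the covariate (-2.18). The calls at Aurkb, Ccnb1 and Mcm3 also rested on single libraries, and all 3 were lost without cTreg replicate 3, at 1.18, -1.78 and -0.63, and without eTreg replicate 4, at 0.85, -1.95 and -0.60. The plot of differences by distance shows that at Ccnd2, Cdk6, E2f3 and Cdkn1a no point within 1 kb of a start was called, while the called points lay 25.4 kb or more away. A nearest start is a rule of position, and which gene a distant region acts on was not measured.

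**Figure D5:**
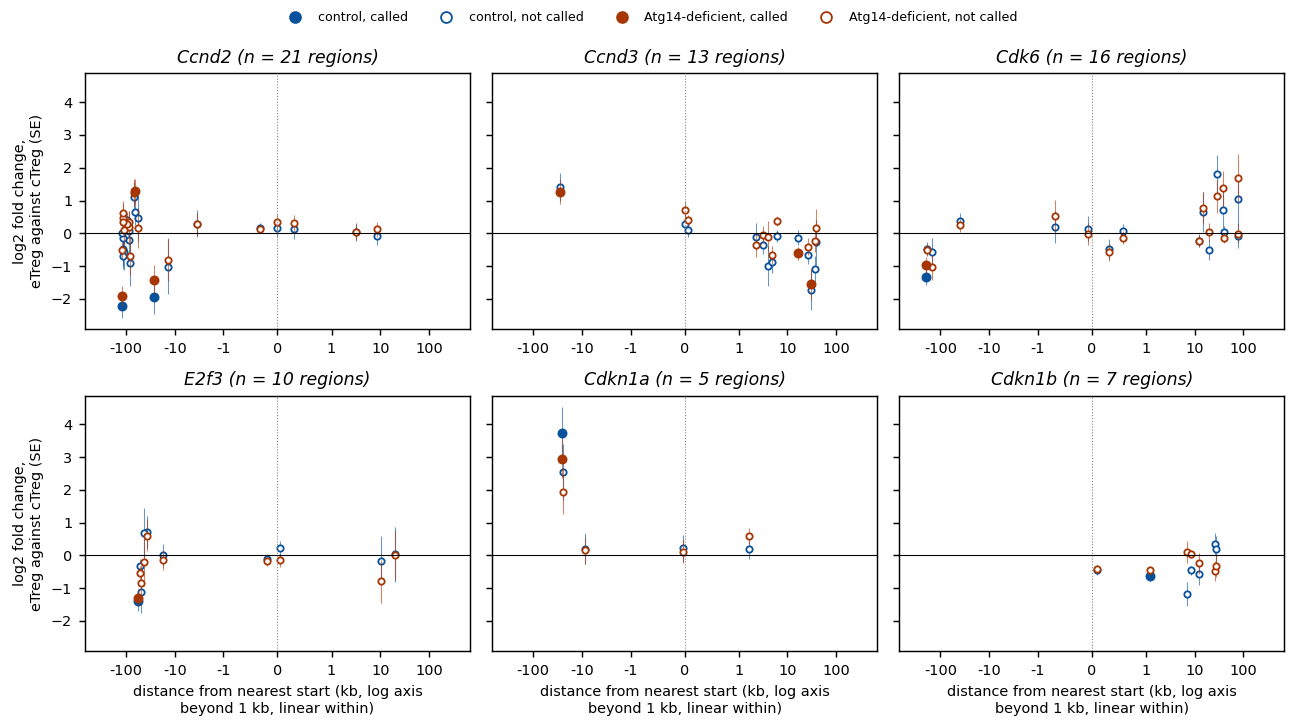
Log2 fold change (± SE) of eTregs over cTregs against the distance from the nearest start in kb (log axis beyond 1 kb, linear within it) for the tested regions of 6 genes, in control (blue) and Atg14-deficient (red) cells, with filled points for called regions. Regions within 1 kb lie between -0.58 and 0.72 and none is called, and the called points of Ccnd2, Cdk6, E2f3 and Cdkn1a lie 25.4 kb or more upstream.

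The remaining comparisons asked what the loss of Atg14 does within a state. In eTregs, 0 of 62 promoter regions and 0 of 181 nearest regions were called between Atg14-deficient and control libraries, where 0.0280% of all promoter regions and 0.0228% of all tested regions were called, and DESeq2 called 0 too. At an unadjusted p below 0.05 with the same fold limit, 6 promoter regions passed (9.68%, against 4.36% of all promoter regions), 4 higher and 2 lower in Atg14-deficient eTregs, and 15 nearest regions (8.29%, against 6.36% of all tested regions). The median over the promoter regions was 0.00, against 0.01 over all promoter regions, with 31 of 62 above 0, and 49 of 62 intervals lay within a 2-fold change. TMM scaling put the median at -0.05, against -0.04, so that its sign depends on the scaling. In cTregs, 0 and 0 were called, where 0.0349% of all promoter regions and 0.0163% of all tested regions were, and DESeq2 called 0. Unadjusted, 2 promoter regions (3.23%, against 1.98%) and 8 nearest regions (4.42%, against 3.34%) passed. The median over the promoter regions was -0.07, against -0.04 over all promoter regions, and 52 of 62 intervals lay within a 2-fold change. The interaction of genotype and state called 0 in both sets, as in all promoter regions and all tested regions (0% each), in edgeR and in DESeq2. Unadjusted, 2 promoter regions passed (3.23%, against 2.90%), Cdk4 and Aurkb, and 4 nearest regions (2.21%, against 3.05%).

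E2f2, which encodes an E2F factor of lymphocytes, had the smallest p in eTregs and the second smallest in cTregs. The region 147 bp before its inner start (chr4:136180426-136180845) had 35.5, 35.2 and 38.9 CPM in control eTregs and 20.4, 22.6, 17.5 and 27.5 CPM in Atg14-deficient eTregs, which did not overlap, for a log2 fold change of -0.73 ± 0.20 (SE, adjusted p = 0.323, edgeR). The cTreg values were 31.8, 22.0 and 35.7 CPM in controls and 19.3, 23.7, 19.2 and 18.6 CPM in Atg14-deficient cells (-0.55 ± 0.21, adjusted p = 1.00, edgeR). Neither passed the correction. Of the 8 regions nearest E2f2, 5 passed the unadjusted limits in eTregs, the other 4 of them with higher values in Atg14-deficient eTregs. Of these, the region 638 bp before the inner start had 8.46, 7.35 and 7.21 CPM in control eTregs against 10.2, 11.7, 15.9 and 16.4 CPM (0.83 ± 0.33, adjusted p = 0.540, edgeR), and the region 64 bp before the outer start had 5.53, 6.04 and 5.41 CPM against 10.8, 6.69, 11.6 and 10.8 CPM (0.83 ± 0.36, adjusted p = 0.575, edgeR). Values on both sides of 0 were thus found within 1 gene, 0 of them past the correction.

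Mcm5 was next in eTregs, with 113, 107 and 117 CPM in controls and 75.5, 103, 79.4 and 82.2 CPM in Atg14-deficient cells. The values did not overlap, and the log2 fold change was -0.41 ± 0.12 (SE, adjusted p = 0.355, edgeR). In cTregs the groups did not overlap either, at -0.19 ± 0.12 (adjusted p = 1.00, edgeR). The Aurkb promoter (chr11:69045434-69045772) had 5.86, 9.97 and 7.21 CPM in control eTregs and 11.99, 11.7, 14.3 and 21.1 CPM in Atg14-deficient eTregs (0.95 ± 0.31, adjusted p = 0.452, edgeR), and 8.80, 7.66 and 13.4 against 6.72, 11.7, 8.41 and 10.9 CPM in cTregs (-0.04 ± 0.32). In cTregs the smallest p values were at the Ccnd3 region 16.7 kb past the outer start (0.60 ± 0.22, adjusted p = 1.00, edgeR) and, after E2f2, at the Ccnd2 region 64.1 kb upstream (-0.95 ± 0.40, adjusted p = 1.00, edgeR), both with library values given above. At Mki67 the genotype values were -0.04 in eTregs (95% interval -0.30 to 0.22) and -0.08 in cTregs (-0.34 to 0.18).

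A wider list of 72 genes of the same pathways, none of them a member, was read in the same way. Promoter regions were found for 71 of them, and 88 regions were tested. In controls 0 were called, beside 2.73% of all promoter regions, and in Atg14-deficient cells 5 were called, beside 7.68% of all promoter regions, 3 of them higher and 2 lower in eTregs, while 0 were called in either genotype comparison or in the interaction. Those higher were Stmn1 (0.80), Tfdp1 (0.73), the dimerization partner of E2F factors, and Rfc5 (0.51), a subunit of the clamp loader. Those lower were Dbf4 (-0.57), the activator of the kinase that fires origins, and Rpa3 (-0.53), a subunit of the single-strand binding protein. The median log2 fold changes of the 88 regions were 0.09 and 0.12 in the 2 genotypes, beside 0.15 and 0.15 for the members.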

How the data were processed

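ATAC-seq counts of 14 libraries in 4 groups were read from 1 table. The authors' methods describe trimming, alignment with BWA, removal of duplicates, a shift of reads for the transposase, peak calling with MACS2 and counting of nucleosome-free reads, and the deposited values are these whole-number counts, not normalized, per region of a merged peak set. The methods name mm9, while the submitters' processing notes name GRCm38 (mm10), cutadapt 1.9, Picard 1.65, SAMtools, MACS2 2.1.0.20150603 and bedtools. The coordinates were checked: of 21774 protein-coding gene starts in GRCm38, 10147 had a region closer than 200 bp, and 758 did once the starts were displaced along the chromosome. The sources used here give 3 control and 4 Atg14-deficient chimeras, as many as there are libraries per state, but not the number of cells per library.

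All regions were fitted together in edgeR 4.0.16 (R 4.3.3, limma 3.58.1) with 4 group means, libraries scaled by their total counts as in the authors' methods, the quasi-likelihood test and Benjamini-Hochberg adjustment over 61366 regions kept by its function filterByExpr. A region was called where the adjusted p was below 0.05 and the log2 fold change exceeded 0.5 in either direction. The statistics were tested on simulated data. The common biological coefficient of variation was 25.6%, and totals were 2242983 to 5548189 counts, so that thin regions have wide intervals. Same-numbered Atg14-deficient cTreg and eTreg libraries deviated together in all 4 pairs (correlations of 0.12 to 0.24 after removing group means), so that the replicate block is given beside that comparison, and beside the control comparison where it changed a count. The pairing comes from the data and the shared number, and no label ties a number to a mouse. Named members were the called promoter regions, the called nearest regions of smallest p, the 3 regions of smallest p in each genotype comparison, and the brightest promoter region of 13 genes chosen for their roles, of which Rrm2 had none. One marker gene of central Tregs is not reported here. Members and lists were chosen with earlier results of these data known. Motifs were matched by Python 3.11.15 (numpy 2.4.6, pandas 2.3.3, scipy 1.17.1), and figures were drawn with matplotlib 3.10.9. DESeq2 1.42.0, TMM and loess scaling, other filters, fold limits and windows, the promoter share as a covariate and leaving out each library were the alternatives.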

Additional observations from a re-analysis of the deposited data

Results flagged for a closer look

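In groups of 4 libraries, a value was singled out where its gap to the nearest other value, divided by the range of the group, was above Dixon's critical value for a group of that size. Of 58 such groups at 29 regions, 4 held one, and chance gives about 1 in 20. At the Gins1 intron region, Atg14-deficient cTreg replicate 3 was the lowest at 7.362 CPM, where the other libraries all rounded to 10.9 CPM. At the E2f2 promoter region 147 bp before the inner start, Atg14-deficient cTreg replicate 2 was the highest at 23.75 CPM. At the upstream Cdkn2c promoter region, Atg14-deficient eTreg replicate 2 was the highest at 64.43 CPM, and this is the library without which the region fell inside the fold limit. At the Ccnd2 region 26.0 kb upstream, Atg14-deficient eTreg replicate 1 was the highest at 4.195 CPM.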

How the results depend on the processing

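The counts for both genotype comparisons and the interaction were 0 under every alternative run. For promoter regions in controls (0 called), the promoter share as a covariate and a window of 2 kb gave 1 each, and leaving out a library gave 0 to 1, the 1 without control cTreg replicate 2. In Atg14-deficient cells (3 called), the replicate block gave 9, the covariate 6 and a log2 fold change limit of 1 gave 0, and leaving out a library gave 2 to 7, the 7 without Atg14-deficient cTreg replicate 4. For nearest regions in controls (7 called), DESeq2 gave 12 (6.63%, against 6.82% of all tested regions), the replicate block 15 (8.29%, against 10.4%) and the covariate 19 (10.5%, against 11.1%), and leaving out a library gave 5 to 12, the 12 without control cTreg replicate 2. In Atg14-deficient cells (16 called), the replicate block gave 31 (17.1%, against 15.5%), the covariate 31 (17.1%, against 17.7%, with 11 of the 16) and the limit of 1 gave 10, and leaving out a library gave 7 to 19, with 7 without Atg14-deficient cTreg replicate 3 and 8 without Atg14-deficient eTreg replicate 4. The limit of 1 leaves fewer regions by construction, and for the other settings the cause was not tested. Shares of all regions called with a library left out are not given here, so that those counts cannot be set against a background. No direction of a called region reversed in the alternatives run. The median of the member promoters between genotypes in eTregs, 0.00 with 31 of 62 above 0, was -0.05 with TMM (24 above 0) and -0.04 with DESeq2 (26 above 0). Same-numbered control cTreg and eTreg libraries correlated at 0.054, 0.21 and 0.19, not all above 0.1, and each of these libraries correlated best with its own number. The calls at the Ccnd2 region 118.6 kb upstream and at the E2f3, Cdkn1a and Gins1 regions held in both comparisons under every alternative that tested them, and that at the Top2a promoter in Atg14-deficient cells (0.85) under every one but the limit of 1. Named calls lost without a single library are given beside their values. Depth limits the regions away from starts, whose median was 5.59 CPM, more than the promoters.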
